A study of Arabidopsis thaliana with 20 samples.

Results

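H3K4me3 was compared between *h3.3kd* and WT seedlings of *Arabidopsis thaliana* by chromatin immunoprecipitation and sequencing (ChIP-seq), in 2 libraries per genotype. The members are the samples with the H3K4me3 antibody, 4 of the 20 libraries of the series, and the 4 libraries of total H3 from the same genotypes served as a second reference. Both genotypes were of the Columbia ecotype and grew on plates with glucose under long days for 10 days. WT carries no allele or transgene. The *h3.3kd* plants were homozygous for the T-DNA insertions *htr4-2* and *htr8-2* and carried an artificial microRNA against *HTR5* under the *HTR5* promoter. Which of the *h3.3kd* lines was used for ChIP is not given in the sources used here, so the plants may stand for 1 transgenic line, and *HTR5* is lowered, not mutated. Whether the replicates came from separate cultures is not stated, and p-values then measure only the spread between these libraries.

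H3K4me3, the trimethylated lysine 4 of histone H3, is laid down by SET domain methyltransferases near the start of transcribed genes and read by PHD finger proteins. In Arabidopsis it forms a peak over the first nucleosomes after the transcription start site (TSS) and is low in heterochromatin. H3.3 is the replacement variant of H3 that is deposited independently of DNA replication, mostly toward the transcription end site (TES) of active genes, and in Arabidopsis it is encoded by *HTR4*, *HTR5* and *HTR8*. The comparison addresses whether H3K4me3 keeps its place and relative level when H3.3 is scarce. Each library was scaled to its own nuclear reads, so a change in the total amount of the mark would not show.

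The study's 2 artificial microRNAs are shown with the sites in *HTR5* that match them best, since they define the knockdown. Both are written 5′ to 3′ as DNA, with bases 2 to 8 of the microRNA in capitals. In the sites, the bases complementary to the microRNA are in capitals, and G opposite U is not counted as complementary.
amiR-HTR5-I: tATCTATTtagaaaaccgccc
HTR5 site of amiR-HTR5-I: GGGtGGTTTTCTAAATAGATA
amiR-HTR5-II: tTCCAGTAgacttacgcgctg
HTR5 site of amiR-HTR5-II: CAGCtCGTAAGTCTACTGGAg
The first site lies on chromosome 4 from 18557484 to 18557504 of TAIR10.1, on the minus strand, 1441 bp after the TSS in an exon outside the coding sequence. It has 1 base that is not complementary. The second lies from 18558197 to 18558217 on the same strand, 728 bp after the TSS in coding sequence, and has 2 such bases. The files give no strand for 2 libraries and no sequence of the reads, so a transgene cannot be told apart from the locus it copies.

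Of the H3K4me3 libraries, replicates 1 and 2 held 26160523 and 53927583 nuclear reads in WT against 20957228 and 59510220 reads in *h3.3kd*. Replicate 2 of both genotypes was listed without strand and without organelle reads, so the list format goes with the replicate number, and differences are given within replicate 1 and within replicate 2. At most 2 reads were kept at a position. From the TSS to +1000 bp, replicate 1 filled a median of 18.9% of these places in WT and 16.4% in *h3.3kd*, and replicate 2 filled 48.9% and 57.4%. In replicate 2, 495 of the 26194 genes in WT and 2847 in *h3.3kd* had over 80% of the places filled, against 0 in replicate 1, so the highest levels of replicate 2 lay near the limit. A correction for reads lost at occupied positions was therefore computed beside each value. Photosynthesis and constitutive genes carried H3K4me3 as green tissue should, with medians over the list of 20.6 and 23.9 reads per 1000000 nuclear reads (rpm) from the TSS to +1000 bp in WT for 19 photosynthesis genes and 19.8 and 24.7 rpm for 11 constitutive genes. Medians were 13.2 and 13.5 rpm for 12 seed storage and maturation genes and 9.33 and 8.77 rpm for 6 pollen genes. Over all genes they were 14.5 and 18.2 rpm in WT, so the seed list lay only a little below all genes in replicate 1.

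The genes with T-DNA insertions were checked first, each at its longest stretch with 0 reads in the 4 *h3.3kd* libraries of H3K4me3 and H3 together. This stretch had 46 positions in *HTR4* and 95 in *HTR8*, against at most 4 and 5 positions in the 4 WT libraries together. *HTR4* had 19 and 80 H3K4me3 reads in WT at the 46 positions from 18555919 to 18555964 of chromosome 4, and *HTR8* had 70 and 171 at the 95 positions from 3472947 to 3473041 of chromosome 5. The 0 in *h3.3kd* is how the stretches were chosen, while every WT library had reads there. At *HTR8* the window from the TSS to +1000 bp holds the whole stretch, so its values include the positions chosen for 0 reads. At *HTR4* the same window ends short of the stretch. In these windows *HTR8* had 18.9 and 25.2 rpm in WT and 15.9 and 19.4 rpm in *h3.3kd*. *HTR4* had 21.6 and 26.2 rpm in WT and 15.3 and 26.1 rpm in *h3.3kd*. H3K4me3 thus remained on both mutated genes in *h3.3kd*, with lower values within both replicates at *HTR8* and within replicate 1 only at *HTR4*. H3 at *HTR8* was also lower, with 8.52 and 13.6 rpm in WT and 6.84 and 8.09 rpm in *h3.3kd*. Relative to H3 of the same replicate number, the log2 difference in H3K4me3 was 0.067 and 0.36 at *HTR8* and -0.56 and 0.54 at *HTR4*. Such values within replicate 2 use H3 of WT replicate 2, which stood apart from the other H3 libraries, as given below. *HTR5*, the target of the microRNA, had 20.5 and 26.8 rpm in WT and 33.5 and 29.7 rpm in *h3.3kd*, the higher values being those of *h3.3kd*. H3 at *HTR5* moved the same way, from 7.58 and 13.6 rpm in WT to 11.7 and 14.6 rpm in *h3.3kd*, and relative to H3 of the same replicate number the difference in H3K4me3 was only 0.09 and 0.04 on the log2 scale.

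Over all genes, H3K4me3 formed the same peak after the TSS in both genotypes. The summit of the mean profile lay at +395 and +385 bp in the WT replicates and at +415 and +385 bp in those of *h3.3kd*. Density there was 17.7 and 20.4 in WT, against 18.6 and 20.8 in *h3.3kd*, in reads per kb and 1000000 nuclear reads (RPKM). The libraries ordered by replicate number rather than by genotype, with both replicate 2 libraries above both replicate 1 libraries. Just upstream of the TSS the lowest density was 5.86 and 5.23 in WT, against 6.08 and 5.16 in *h3.3kd*, and here replicate 2 was the lower. In genes of 3 kb or more, the peak fell to the level midway between summit and gene body at +845 and +945 bp in WT and, in *h3.3kd*, at +895 and +1015 bp. The stretch above that level was 670 and 800 bp wide in WT, against 730 and 890 bp in *h3.3kd*. After the correction for lost reads it was 660 bp in both WT libraries, against 700 and 680 bp in *h3.3kd*.

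**Figure D1:**
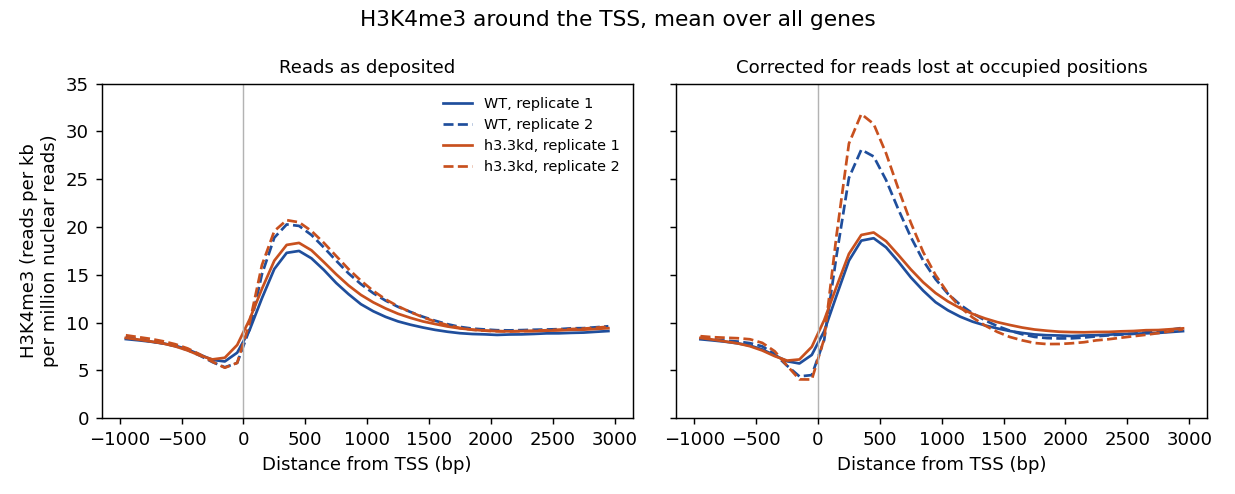
Mean H3K4me3 density (RPKM, in steps of 100 bp) against distance from the TSS in bp, for the 4 libraries, with reads as deposited on the left and corrected for reads lost at occupied positions on the right. As deposited, the summits reach 17.7 and 20.4 in WT, against 18.6 and 20.8 in *h3.3kd*, in the finer profile, and the correction raises those of replicate 2 to 28.3 in WT and 32.03 in *h3.3kd*.

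From the TSS to +1000 bp, mean density over the 26194 genes was 14.4 and 16.6 RPKM in WT, against 15.3 and 17.2 in *h3.3kd*. On the log2 scale the means were 3.95 ± 0.15 for WT and 4.02 ± 0.12 for *h3.3kd* (SD, n = 2 each), which differ by 0.067, with 0.088 within replicate 1 and 0.045 within replicate 2. The ranges of the genotypes overlapped (p = 0.667 by an exact two-sided permutation test, where 0.333 is the lowest that 2 libraries per group allow). After the correction the differences were 0.075 and 0.14. Relative to H3 of the same replicate number they were 0.0047 and -0.029. H3 itself had a larger share of its reads there in *h3.3kd* than in WT, with 9.60 against 9.06 RPKM in replicate 1. Such a share is not an amount of H3, and by western blot the paper reports less total H3 protein in *h3.3kd*. Relative to H3, each scaled to its own reads, H3K4me3 at gene starts was thus nearly the same in both genotypes.

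Elsewhere around genes the differences were at most 0.081 on the log2 scale in either replicate as deposited, and only after the TES did both replicates have the same sign both as deposited and after the correction. From -1000 to -250 bp, density was 7.58 and 7.59 RPKM in WT, against 7.57 and 7.77 in *h3.3kd*, with differences of -0.0012 and 0.035 (p = 1, exact permutation test). In the body beyond +1500 bp of the 7010 genes of 3 kb or more, it was 8.89 and 9.49 in WT, against 9.40 and 8.98 in *h3.3kd*. The body thus differed by 0.081 on the log2 scale within replicate 1 and by -0.079 within replicate 2 (p = 1, exact permutation test), and by -0.25 there after the correction. In the last 500 bp before the TES of the 14435 genes of 2 kb or more, density was 7.31 and 6.98 in WT, against 7.43 and 7.34 in *h3.3kd*. Both *h3.3kd* values were the higher there, by 0.024 and 0.075 (p = 0.333, exact permutation test), but the correction turned the difference within replicate 2 to -0.071. In the first 500 bp after the TES it was 7.71 and 7.79 in WT, against 7.74 and 8.06 in *h3.3kd*, with differences of 0.0061 and 0.050, and 0.0051 and 0.045 after the correction (p = 0.667, exact permutation test).

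The share of nuclear reads within -250 to +1000 bp of a TSS was 40.7 and 46.1% in WT, against 43.3 and 47.4% in *h3.3kd*. In means this was 43.4% ± 3.79 for WT and 45.4% ± 2.94 for *h3.3kd* (SD, n = 2 each), with differences of 2.53 and 1.34 percentage points within replicates 1 and 2 (p = 0.667, exact permutation test). After the correction the shares were 42.4 and 54.8% in WT, against 44.6 and 59.9% in *h3.3kd*. H3 had 27.0 and 31.3% of its reads there in WT, against 28.6 and 30.5% in *h3.3kd*.

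Longer genes carried more H3K4me3 at the start in every library. From the TSS to +500 bp, the 3138 genes under 1 kb had 10.6 and 11.3 RPKM in WT, against 10.7 and 11.7 in *h3.3kd*. The 1637 genes of 5 kb or more had 17.4 and 20.4 in WT, against 18.8 and 21.3 in *h3.3kd*. The difference between genotypes was 0.025 and 0.053 (log2, within replicates 1 and 2) in the shortest class, 0.075 and 0.038 in the 8621 genes of 1 to 2 kb, and 0.10 and 0.055 in the 7425 genes of 2 to 3 kb. It was 0.11 and 0.067 in the 5373 genes of 3 to 5 kb and 0.11 and 0.065 in the longest class, so that all 10 values were above 0. The longest class exceeded the shortest by 0.72 and 0.86 in WT, against 0.80 and 0.87 in *h3.3kd*. The dependence on length thus differed by 0.046 between the genotypes, less than the spread in WT (0.79 ± 0.10, SD, n = 2, p = 0.667, exact permutation test). With the number of exons the picture was flatter. Genes of 1 exon differed by 0.10 and 0.041, those of 2 to 3 exons by 0.069 and 0.049, those of 4 to 7 exons by 0.086 and 0.054 and those of 8 or more exons by 0.10 and 0.061. Genes of 8 or more exons exceeded those of 1 exon by 0.33 and 0.36 in WT, against 0.33 and 0.38 in *h3.3kd* (p = 0.667, exact permutation test).

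**Figure D2:**
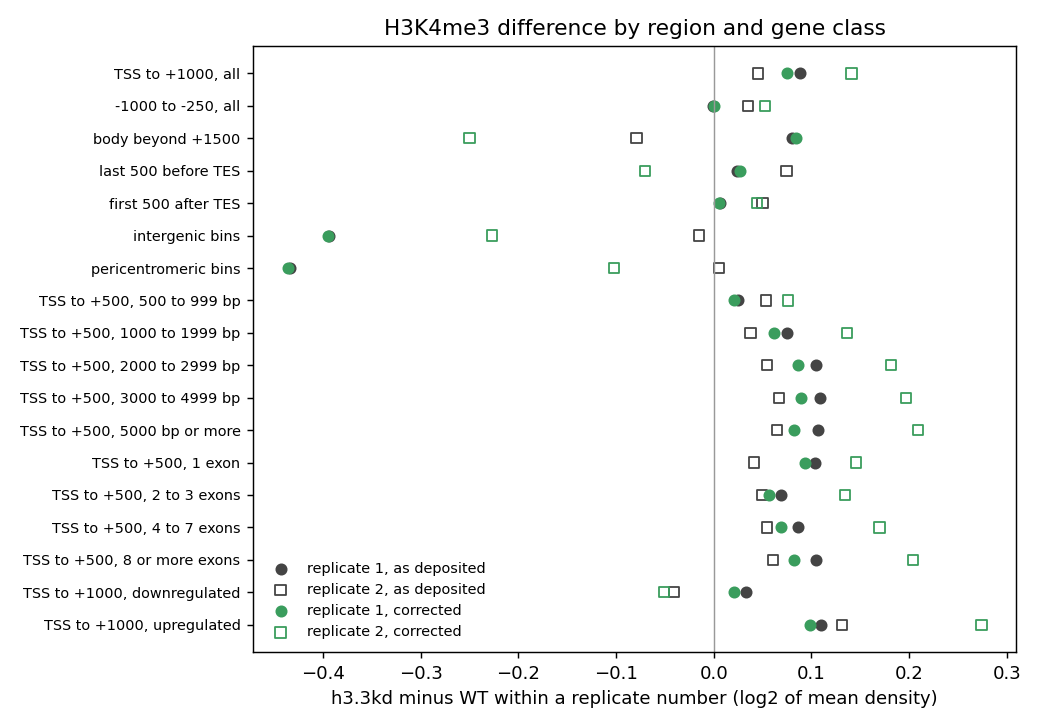
Difference in H3K4me3 between *h3.3kd* and WT (log2 of mean density, x axis) within replicate 1 (filled circles) and within replicate 2 (open squares), as deposited (dark) and corrected for lost reads (green), for each region and gene class (y axis, distances and lengths in bp). As deposited, the gene starts lie between 0.025 and 0.11 in every length and exon class, and intergenic and pericentromeric bins lie at -0.39 and -0.43 within replicate 1 but at -0.015 and 0.0050 within replicate 2.

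Between genes and in the pericentromeres, which are the heterochromatin around the centromeres, H3K4me3 was low and 1 library stood apart. In the 8494 intergenic 1-kb bins with reads, at least 500 bp from any gene, density was 4.45 and 2.60 RPKM in WT, against 3.39 and 2.57 in *h3.3kd*. In the 19415 pericentromeric bins it was 5.08 and 2.62 in WT, against 3.76 and 2.63 in *h3.3kd*. WT replicate 1 had the highest value in both, and the replicate 2 libraries were nearly equal. In intergenic bins the differences were -0.39 and -0.015, with means of 1.77 ± 0.55 for WT and 1.56 ± 0.28 for *h3.3kd* on the log2 scale (SD, n = 2 each, p = 0.667, exact permutation test). In pericentromeric bins they were -0.43 and 0.0050, with means of 1.87 ± 0.67 and 1.65 ± 0.36 (SD, n = 2 each, p = 1, exact permutation test). Without WT replicate 1 the mean differences turned to 0.18 and 0.26, and without *h3.3kd* replicate 2 that of the pericentromeres turned to 0.041. These values also hold the difference between replicate numbers. Scaled to pericentromeric reads, the median difference of all genes moved from 0.067 to 0.28. The part of this background in the differences at gene starts was not tested.

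Within replicate 1, differences as deposited were ordered by the level of the gene. Genes were split into 5 classes of equal size by their mean over the 4 libraries, with class 1 the lowest. The median difference within replicate 1 was -0.18 in class 1, 0.03 in class 2, 0.11 in class 3, 0.13 in class 4 and 0.14 in class 5. Within replicate 2 it was -0.02, 0.02, 0.08, 0.06 and 0.03 in the same order. After the correction it was -0.22, -0.14, 0.11, 0.17 and 0.21 within replicate 2, and so in the order of replicate 1. Relative to H3 of the same replicate number, the medians did not follow the level. They were -0.21, -0.0026, 0.011, -0.027 and 0.0035 within replicate 1 and -0.13, -0.21, 0.16, 0.13 and -0.084 within replicate 2. In class 5 every one of the 5203 genes had more than 50% of the places filled in both replicate 2 libraries, and in class 1 none had.

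**Figure D3:**
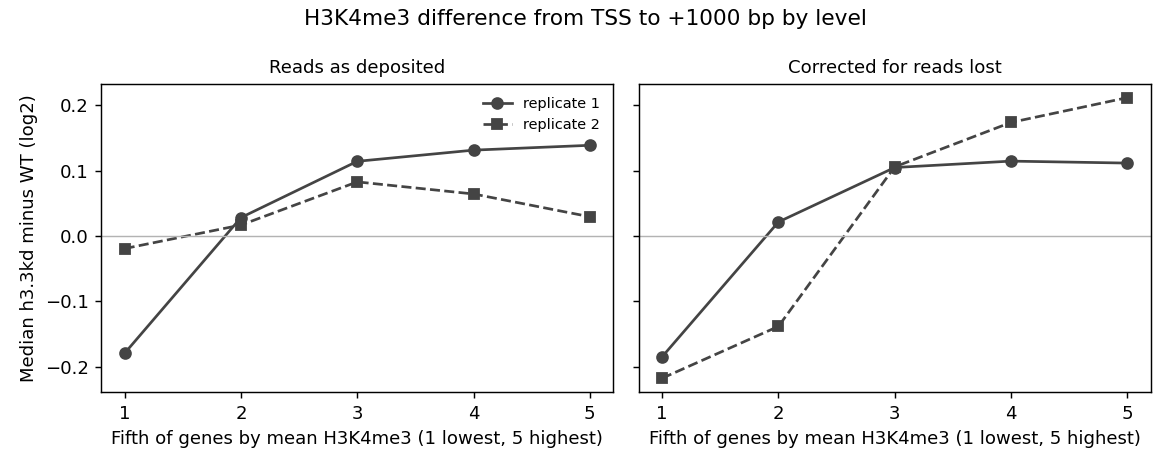
Median difference in H3K4me3 between *h3.3kd* and WT from the TSS to +1000 bp (log2, y axis) in 5 classes of genes by mean level (x axis, 1 lowest), within replicate 1 (circles) and replicate 2 (squares), as deposited (left) and corrected (right). The lines run from -0.18 to 0.14 and from -0.02 to 0.08 as deposited, and from -0.18 to 0.11 and from -0.22 to 0.21 after the correction.

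Taken singly, 1 of 26014 genes passed from the TSS to +1000 bp (0.00384%) by limma at an adjusted p of 0.05, and it was lower in *h3.3kd*. Unadjusted, 19 genes were higher and 51 lower at p under 0.05. Both *h3.3kd* libraries lay above both WT libraries at 2147 genes (8.25%) and below both at 1060 (4.07%). Differences within replicates 1 and 2 had the same sign at 18221 genes (70.0%), 13787 of them up, with a Pearson correlation of 0.38 across 26014 genes, which are not independent replicates. Within replicate 1, 58 genes differed by more than 1 on the log2 scale, within replicate 2 1 gene did, and 0 did so in the same direction in both. When the list format entered the fit as a batch term, limma called 934 genes higher (3.59%) and 309 lower (1.19%), and these are the calls given below as made with the batch term. Of these, 915 and 307 had the same direction in both replicates, and at 408 and 167 the groups did not overlap. In both fits limma's estimate of the variance was wholly pooled, so a gene's own spread did not count and a difference in 1 replicate only can pass. The calls with the batch term, and the size of single p-values, are to be read with that limit.

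The called gene, AT1G75945, encodes a short uncharacterized protein on chromosome 1 from 28515245 to 28515916, minus strand, with 2 exons. It had 10.6 and 16.1 rpm in WT and 5.49 and 4.02 rpm in *h3.3kd*, a log2 difference of -1.46 (standard error 0.25, adjusted p = 0.000101 from limma). It fell by 0.94 within replicate 1 and by 1.97 within replicate 2. H3 over the same window was 6.64 and 8.68 rpm in WT and 8.39 and 6.40 rpm in *h3.3kd* and overlapped between the genotypes. In steps of 250 bp, H3K4me3 in WT reached 19.9 and 29.5 RPKM inside the gene, where *h3.3kd* had 6.68 and 5.92, close to its own level in the next step, 6.68 and 4.03. The step is printed to show the sequence under it, from 28515501 to 28515750 of chromosome 1 (TAIR10.1, plus strand), with CG dinucleotides, the sites of gene body methylation in plants, in capitals. It holds 45 exon bases, is 33.2% G and C against 36.03% of the 5 chromosomes, and has 2 CG sites.
AT1G75945 step: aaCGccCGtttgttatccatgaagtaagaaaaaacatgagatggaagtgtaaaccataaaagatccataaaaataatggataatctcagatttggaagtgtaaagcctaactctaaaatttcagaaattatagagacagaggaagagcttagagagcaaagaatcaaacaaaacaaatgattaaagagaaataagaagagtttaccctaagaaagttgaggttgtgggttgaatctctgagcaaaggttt
The call was lost without WT replicate 2 (adjusted p = 0.856 from limma) and without *h3.3kd* replicate 2 (limma's adjusted p = 1), and held in 13 of 22 alternatives.

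No gene rose by the threshold, so the 5 with the widest gap between the groups are given as values. AT1G31750, a proline-rich protein, had 6.31 and 6.01 rpm in WT and 9.59 and 10.5 rpm in *h3.3kd*. *WRKY20*, a WRKY transcription factor, had 8.37 and 9.35 rpm in WT and 13.3 and 14.4 rpm in *h3.3kd*. AT1G09157, a putative transmembrane protein, had 10.05 and 9.90 rpm in WT and 13.9 and 14.5 rpm in *h3.3kd*. That the groups lie apart is how all 5 genes were chosen. AT5G54095, a proteoglycan-like protein, had 11.4 and 11.7 rpm in WT and 16.1 and 16.2 rpm in *h3.3kd*. AT5G57320, an actin-bundling protein of the villin kind, had 7.87 and 7.08 rpm in WT and 11.7 and 10.7 rpm in *h3.3kd*. All 5 were called with the batch term, with adjusted p between 8.51e-08 for *WRKY20* and 9.77e-05 for AT5G57320 from limma. These calls use the same values by which the genes were chosen.

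Among the genes with the widest gap downward, AT5G18370, a TIR-NBS-LRR immune receptor gene, had 19.0 and 20.1 rpm in WT and 13.0 and 12.8 rpm in *h3.3kd*. AT4G05590, a mitochondrial pyruvate carrier-like gene, had 9.48 and 8.35 rpm in WT and 6.16 and 5.14 rpm in *h3.3kd*. AT5G44770, a cysteine/histidine-rich C1 domain gene, had 10.9 and 9.85 rpm in WT and 7.35 and 6.05 rpm in *h3.3kd*. These 3 were called lower with the batch term (adjusted p = 3.89e-11, 0.000332 and 7.14e-05 from limma). AT1G56225, an uncharacterized gene with 4.43 and 4.17 rpm in WT and 2.96 and 2.81 rpm in *h3.3kd*, was not (adjusted p = 0.101 from limma). The calls again use the values by which the genes were chosen. At AT5G18370, AT4G05590 and AT5G44770 the difference relative to H3 of the same replicate number was between -0.49 and -1.43 and so kept its sign. At AT1G56225 it was -0.75 within replicate 1 and 1.06 within replicate 2, so the sign turned there. H3 at this gene was 4.09 and 9.61 rpm in WT and 4.65 and 3.07 rpm in *h3.3kd*. The high value is that of WT replicate 2, the H3 library that stood apart, as given below.

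The genes of the enzymes that write H3K4me3 carried it at high levels in both genotypes. Of the 7 H3K4 methyltransferase genes, 0 were called with or without the batch term, and their median difference was 0.09 against 0.07 for all genes. *ATXR3*, which encodes the main enzyme of H3K4 trimethylation, had the highest level, 24.9 and 28.1 rpm in WT and 27.6 and 29.1 rpm in *h3.3kd*. *ATX5* had the lowest level and the largest difference upward, 18.0 and 22.3 rpm in WT and 20.8 and 24.1 rpm in *h3.3kd*. *ATX4* had the smallest difference, with 21.3 and 21.8 rpm in WT and 19.6 and 23.98 rpm in *h3.3kd*. The 3 COMPASS core subunits, the scaffold on which these enzymes act, also had 0 calls in both fits, with 27.0 and 29.8 rpm at *ASH2R*, the highest of the list, in WT and 29.2 and 30.1 rpm in *h3.3kd*. The 4 readers had 0 calls too, and *SHL* was the highest with 23.4 and 29.5 rpm in WT and 25.4 and 29.0 rpm in *h3.3kd*. *EBS*, a reader that represses flowering, had 22.6 and 25.1 rpm in WT and 22.7 and 25.9 rpm in *h3.3kd*. Over all genes limma-voom called 0, with 61 higher and 32 lower at p under 0.05 unadjusted.

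Of the 8 genes for H3K4 demethylases, 2 were called higher with the batch term (25%, against 3.59% of all genes) and 0 without it. *JMJ18*, a JmjC demethylase, had 6.73 and 11.3 rpm in WT and 10.5 and 12.8 rpm in *h3.3kd* (adjusted p = 0.00613 with the batch term from limma). *JMJ17* had 14.2 and 18.2 rpm in WT and 18.3 and 20.1 rpm in *h3.3kd* (adjusted p = 0.0242 with the batch term from limma). At *JMJ18* the groups overlapped, and the replicates of WT were far apart. *JMJ15* had the lowest level, 7.07 and 4.19 rpm in WT and 5.97 and 4.99 rpm in *h3.3kd*, and *LDL1*, an LSD1-like demethylase, the highest, with 25.5 and 30.5 rpm in WT and 27.5 and 30.4 rpm in *h3.3kd*. Of the *H3.1* genes, which encode the replicative H3 and of which 5 were measured, 0 were called in both fits. *HTR1* was the highest with 26.0 and 29.6 rpm in WT and 29.3 and 30.4 rpm in *h3.3kd*, and *HTR2* differed most, with 20.7 and 24.5 rpm in WT and 26.1 and 26.9 rpm in *h3.3kd* (adjusted p = 0.0822 with the batch term from limma). Of the *H3.3* genes, *HTR5* was called higher and *HTR4* and *HTR8* lower with the batch term, by 0.43, -0.25 and -0.31 on the log2 scale (adjusted p = 0.0019, 0.0358 and 0.00387 from limma). *HTR4* owes this to replicate 1, with -0.50 against -0.0039 in replicate 2. Relative to H3 of the same replicate number, *HTR8* differed by 0.067 and 0.36 and so was not lower on that scale. The value of 0.36 uses H3 of WT replicate 2, the library that stood apart. It had 13.6 rpm at *HTR8*, against 8.52 rpm in WT replicate 1. The part of that library in the value was not tested.

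Genes that respond to touch, cold and wounding had the highest share of calls among the hand-made lists of more than 3 genes. With the batch term 8 of 18 were higher (44.4%) and 0 lower, against 3.59% and 1.19% of all genes, and without it 0 were called. Their median difference was 0.43 within replicate 1 and 0.09 within replicate 2, against 0.08 and 0.05 for all genes, so replicate 1 held most of it. *ZAT10*, a zinc finger repressor, had 9.21 and 22.8 rpm in WT and 15.6 and 23.7 rpm in *h3.3kd*, with WT replicate 1 far below the other libraries. *CBF3*, an activator of the cold response, had 15.0 and 17.2 rpm in WT and 21.3 and 20.1 rpm in *h3.3kd*, and its neighbour *CBF1* 10.9 and 13.6 rpm in WT and 16.2 and 15.8 rpm in *h3.3kd*. At these 2 genes both *h3.3kd* libraries lay above both WT libraries, as at 6 of the 18 genes (33.3%, against 8.25% of all genes). *TCH4*, a xyloglucan endotransglucosylase induced by touch, had 8.03 and 15.9 rpm in WT and 11.2 and 18.0 rpm in *h3.3kd*. *WRKY33* had 13.2 and 21.4 rpm in WT and 19.7 and 22.9 rpm in *h3.3kd*. *ERF5* had the highest level, 17.3 and 23.1 rpm in WT and 20.7 and 24.7 rpm in *h3.3kd*, and *JAZ7*, a repressor of jasmonate signalling, differed most downward, with 8.72 and 8.85 rpm in WT and 8.06 and 7.85 rpm in *h3.3kd*. These genes are known to respond to the handling of seedlings, and the part of growth or harvest in their levels was not tested. *DREB2A* was called although it differed within replicate 1 only, with 15.1 and 21.9 rpm in WT and 22.9 and 21.7 rpm in *h3.3kd*. Relative to H3 of the same replicate number, the median difference of the list was 0.16 within replicate 1 and 0.42 within replicate 2. The latter value uses H3 of WT replicate 2, a library that stood apart from the other H3 libraries, as given below. The part of that library in it was not tested.

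**Figure D4:**
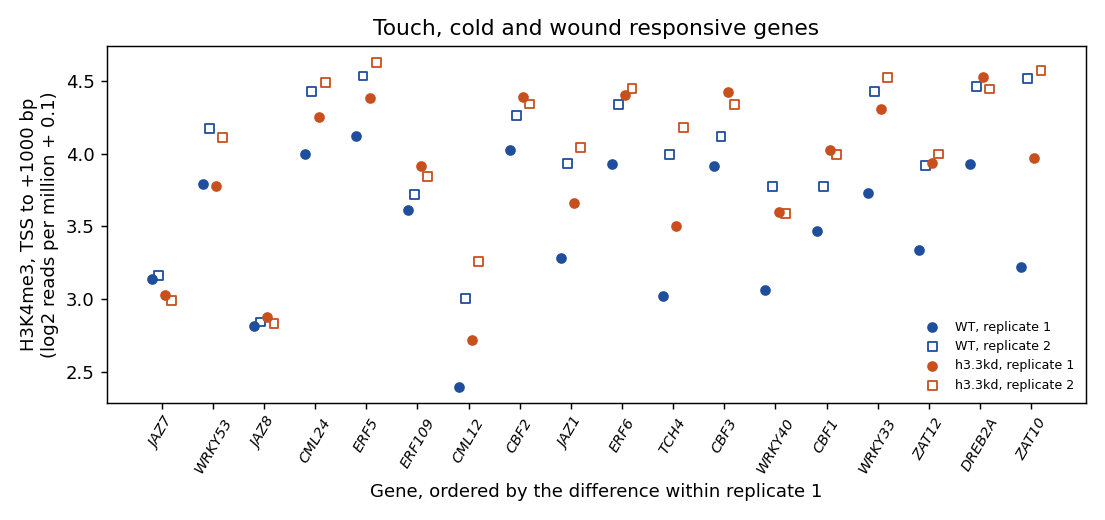
H3K4me3 from the TSS to +1000 bp (log2 of rpm + 0.1, y axis) at 18 touch, cold and wound responsive genes (x axis, ordered by the difference within replicate 1) in WT (blue) and *h3.3kd* (orange), replicate 1 filled circles and replicate 2 open squares. WT replicate 1 is low at most of them, for example 3.22 at *ZAT10* against 4.52, 3.97 and 4.57 in the other libraries.

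Genes that the study listed as misregulated in RNA of *h3.3kd-3* were followed as lists, which are not independent of these plants. The 264 measured upregulated genes had mean densities of 14.5 and 16.3 RPKM from the TSS to +1000 bp in WT, against 15.6 and 17.8 in *h3.3kd*, differences of 0.11 and 0.13 (p = 0.667, exact permutation test). Relative to H3 of the same replicate number the differences were 0.085 and -0.025, so the sign turned within replicate 2. Their mean was 0.030 against 0.12 without H3. The value of -0.025 uses H3 of WT replicate 2, which stood apart, as given below. With H3 replicate 1 as the reference for both replicates, the differences were 0.085 and 0.11, both upward. With the batch term 36 of these genes were called higher (13.6%) and 2 lower (0.758%), against 3.59% and 1.19% of all genes. The 654 measured downregulated genes other than the *H3.3* genes had 12.2 and 13.9 in WT, against 12.5 and 13.5 in *h3.3kd*, differences of 0.033 and -0.041 (p = 1, exact permutation test). In the fit, which kept the *H3.3* genes in that list, 24 of 651 were called higher (3.69%) and 26 lower (3.99%), so that the share called higher was near that of all genes and the share called lower above it. The medians were 0.0069 and -0.038 against 0.081 and 0.045 for all genes. AT4G11410, an NAD(P)-binding protein, differed most downward in it, with 14.8 and 18.9 rpm in WT and 8.49 and 13.2 rpm in *h3.3kd*. In the upregulated list AT4G40045 differed most upward, with 13.2 and 20.5 rpm in WT and 26.5 and 29.3 rpm in *h3.3kd* (adjusted p = 1.42e-18 with the batch term from limma). It lies on chromosome 4 from 18559784 to 18560713, next to the promoter of *HTR5*, a copy of which drives the transgene. H3 there also had more reads, 9.72 and 12.4 rpm in WT and 14.7 and 20.3 rpm in *h3.3kd*, and the part of the transgene was not tested. The highest level in the downregulated list was that of AT5G19120, an aspartyl protease, with 30.1 and 31.95 rpm in WT and 30.35 and 30.95 rpm in *h3.3kd*, and in the upregulated list that of AT3G54720, a peptidase of the M28 family, with 25.4 and 29.5 rpm in WT and 30.3 and 30.3 rpm in *h3.3kd*. AT5G44430, the defensin gene *PDF1.2c*, differed most downward in the latter, with 10.13 and 6.47 rpm in WT and 6.35 and 5.78 rpm in *h3.3kd*.

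Lists of genes that are mostly silent in seedlings are short, and their shares rest on 1 to 3 genes each. Of 18 regulators that Polycomb represses in seedlings, 0 were higher and 1 lower with the batch term (5.56%), against 3.59% and 1.19% of all genes. At 3 of the 18 (16.7%) both *h3.3kd* libraries lay below both WT libraries, against 4.07% of all genes. The gene called was *PHE1*, an imprinted MADS-box gene, with 10.5 and 7.62 rpm in WT and 7.83 and 5.28 rpm in *h3.3kd* (adjusted p = 0.0107 with the batch term from limma), where the genotypes overlapped. *FLC*, the repressor of flowering, had 16.0 and 14.1 rpm in WT and 13.8 and 13.5 rpm in *h3.3kd*, the highest level of the list. *LEC1*, an embryonic regulator, had 3.82 and 2.24 rpm in WT and 4.29 and 2.50 rpm in *h3.3kd*. Of the seed storage and maturation genes 1 of 12 was lower with the batch term (8.33%), *SESA3*, with 16.0 and 14.4 rpm in WT and 13.3 and 11.5 rpm in *h3.3kd*. Without overlap, 3 of the 12 seed genes (25%) and 2 of the 6 pollen genes (33.3%) were lower, against the same 4.07%. Of the 6 pollen genes 0 were called, and *VGD1* was the highest with 15.1 and 16.0 rpm in WT and 15.0 and 14.8 rpm in *h3.3kd*. Of the 19 photosynthesis genes 1 was lower (5.26%), *RBCS1A*, the small subunit of Rubisco, with 18.6 and 19.8 rpm in WT and 13.5 and 19.9 rpm in *h3.3kd*, lower within replicate 1 only. *LHCB6* was the highest of that list with 27.5 and 30.7 rpm in WT and 28.8 and 30.6 rpm in *h3.3kd*, and 0 of 11 constitutive genes were called, among which *PP2AA3* differed most with 15.4 and 23.4 rpm in WT and 19.9 and 24.1 rpm in *h3.3kd*.

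Over the genome in 1-kb bins, 3 of 117112 passed (0.00256%) by limma at an adjusted p of 0.05, 1 higher and 2 lower in *h3.3kd*, where 227 and 285 had an unadjusted p below that. With the batch term 86 were higher (0.0734%) and 74 lower (0.0632%), of which 84 and 53 lay outside the intergenic and pericentromeric classes. Both *h3.3kd* libraries were above both WT libraries in 8219 bins (7.02%) and below both in 6532 (5.58%). Among 8463 intergenic bins tested, 56 did not overlap upward (0.662%) and 472 downward (5.58%), and among 19074 pericentromeric bins 128 upward (0.671%) and 417 downward (2.19%).

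The bin that rose lies upstream of *PIN4*, which encodes an auxin efflux carrier, on chromosome 2 from 184001 to 185000, and overlaps AT2G01422, an annotated non-coding RNA from 183940 to 184734. It had 6.38 and 2.73 rpm in WT and 11.8 and 16.9 rpm in *h3.3kd* (adjusted p = 5.86e-09 from limma), a difference of 0.87 within replicate 1 and 2.59 within replicate 2. In steps of 250 bp the peak of *h3.3kd* reached 17.9 and 29.6 RPKM where WT had 7.03 and 4.38, and it ended within the bin. H3 in that step lay between 6.45 and 15.1, both in *h3.3kd*, with WT in between. Inside *PIN4*, 1 kb before the bin, the 4 libraries lay closer together, with 24.3 and 31.5 in WT, against 30.5 and 30.9 in *h3.3kd*. The step of the peak, from 184251 to 184500 of chromosome 2 (TAIR10.1, plus strand), is printed with CG dinucleotides in capitals. It lies wholly in the exon of AT2G01422, is 42.4% G and C and holds 8 CG sites against 5.85 per 250 bp of the 5 chromosomes.
AT2G01422 step: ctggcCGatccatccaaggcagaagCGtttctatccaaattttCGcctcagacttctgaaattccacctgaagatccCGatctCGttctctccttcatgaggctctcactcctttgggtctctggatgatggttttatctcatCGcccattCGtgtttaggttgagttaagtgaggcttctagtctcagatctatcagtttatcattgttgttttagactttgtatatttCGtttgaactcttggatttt
The call held in 17 of 21 alternatives and was lost without *h3.3kd* replicate 2 (limma's adjusted p = 1), with at most 1 read per position (adjusted p = 0.119 from limma), with pericentromeric scaling and with quantile normalization.

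Of the 2 bins that fell, that on chromosome 1 from 28515001 to 28516000 covers AT1G75945, with 10.7 and 16.4 rpm in WT and 5.68 and 4.201 rpm in *h3.3kd* (adjusted p = 5.95e-06 from limma). Its call held in 15 of 21 alternatives, and not over H3 of the same replicate number (adjusted p = 0.0653 from limma). That on chromosome 3 from 17908001 to 17909000 lies in *BT2*, a BTB and TAZ domain gene that responds to nitrate and sugar, from 17907767 to 17910738. It had 10.3 and 16.6 rpm in WT and 5.68 and 7.46 rpm in *h3.3kd* (adjusted p = 0.0225 from limma), and 250 bp beyond the bin, on the side of the TSS, the 4 libraries came closer, with 20.95 and 25.9 RPKM in WT against 18.7 and 20.97 in *h3.3kd*. H3 in WT replicate 2 was also high in *BT2*, and relative to H3 of the same replicate number the log2 difference over the bin was -0.36. It was called in 8 of 21 alternatives, and not without WT replicate 2, *h3.3kd* replicate 1 or *h3.3kd* replicate 2 (adjusted p = 0.756, 1 and 0.975 from limma).

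**Figure D5:**
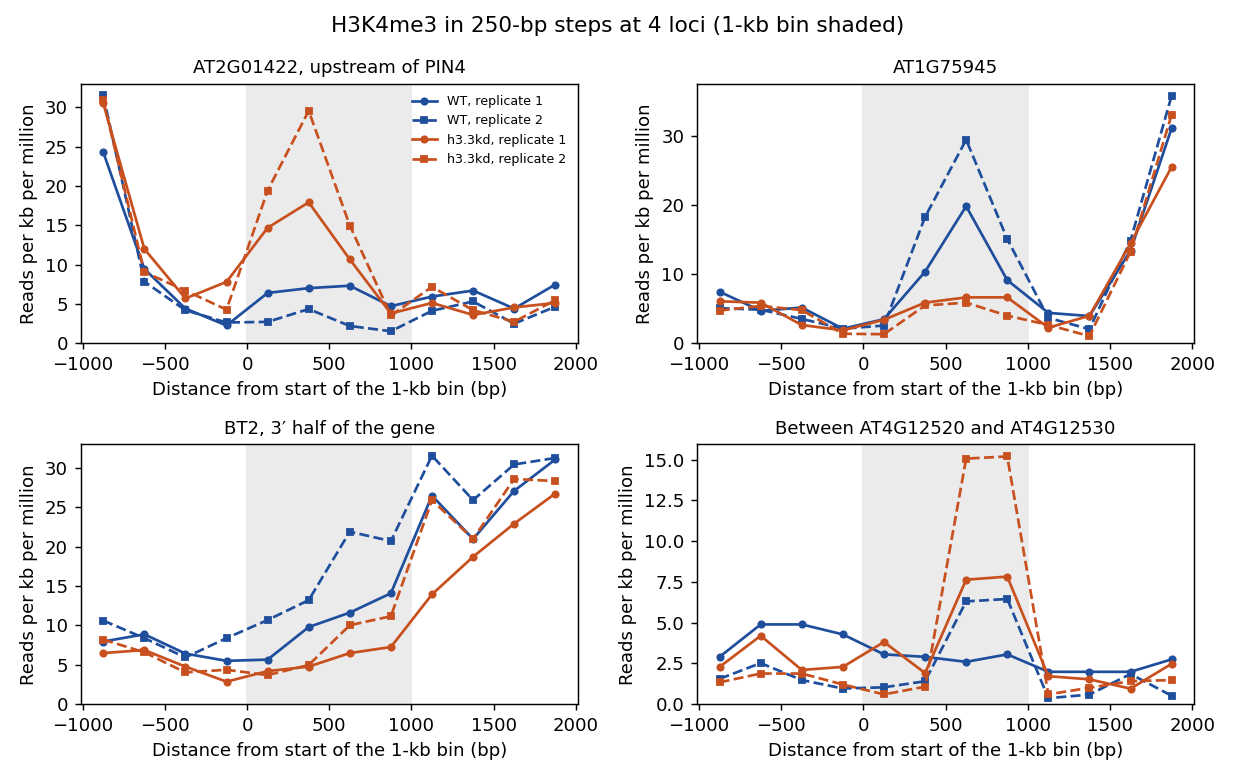
H3K4me3 (RPKM, y axis) in steps of 250 bp against distance in bp from the start of a 1-kb bin (shaded) at 4 loci, in WT (blue) and *h3.3kd* (orange), replicate 1 solid and replicate 2 dashed. At AT2G01422 *h3.3kd* reaches 17.9 and 29.6 where WT has 7.03 and 4.38, and at AT1G75945 WT reaches 19.9 and 29.5 where *h3.3kd* has 6.68 and 5.92.

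In intergenic bins the widest gap upward was on chromosome 4 from 7424001 to 7425000, 2173 bp from AT4G12520 and 2834 bp from AT4G12530, with 2.91 and 3.801 rpm in WT and 5.30 and 7.98 rpm in *h3.3kd* (adjusted p = 0.00652 with the batch term from limma, 1 without it). The excess lay in the last 500 bp of the bin. In the first 250 bp of these, *h3.3kd* had 7.64 and 15.1 RPKM and WT 2.60 and 6.31, while H3 was 8.58 and 9.26 in WT, against 4.13 and 8.09 in *h3.3kd*. The sequence of that step, from 7424501 to 7424750 of chromosome 4 (TAIR10.1, plus strand), is shown because no gene is annotated there. It is 54.8% G and C and holds 16 CG sites, in capitals.
Chromosome 4 intergenic step: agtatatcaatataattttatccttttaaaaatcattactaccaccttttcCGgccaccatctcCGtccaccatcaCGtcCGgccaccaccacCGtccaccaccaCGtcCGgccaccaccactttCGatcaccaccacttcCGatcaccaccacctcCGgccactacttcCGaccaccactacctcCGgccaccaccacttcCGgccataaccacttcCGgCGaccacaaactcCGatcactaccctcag
The other intergenic bins named by the rule did not pass with the batch term. On chromosome 1, the bin from 10144001, between *TBL38* and AT1G29060, had 3.48 and 2.58 rpm in WT and 4.68 and 4.64 rpm in *h3.3kd*, and that from 9925001, 513 bp from *DEG15*, had 3.86 and 3.64 rpm in WT and 4.92 and 5.13 rpm in *h3.3kd*. Downward, the bin from 23124001 of chromosome 1 had 3.33 and 2.91 rpm in WT and 2.15 and 2.05 rpm in *h3.3kd*. The bin from 4534001 of chromosome 1 had 3.90 and 3.43 rpm in WT and 2.62 and 2.71 rpm in *h3.3kd*, and that from 18565001 of chromosome 4 4.86 and 4.43 rpm in WT and 3.29 and 3.53 rpm in *h3.3kd*.

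In the pericentromeres 5 of the 6 bins named by the rule lay over genes or pseudogenes. Most bins there do so, since only 6798 of all 20300 pericentromeric bins overlap none. The bin from 6535001 of chromosome 2, in *RLP19*, a receptor-like protein gene, had 12.5 and 14.7 rpm in WT and 7.87 and 7.26 rpm in *h3.3kd* (adjusted p = 1.3e-08 with the batch term from limma, 0.296 without it). H3K4me3 was lower in *h3.3kd* in each of the steps of 250 bp inside this bin. *MGDC*, which encodes a galactolipid synthase, lies over the bin from 4744001 of chromosome 2, with 7.38 and 7.40 rpm in WT and 4.87 and 4.08 rpm in *h3.3kd* (adjusted p = 0.029 with the batch term from limma). The bin from 4141001 of chromosome 2, 16 bp from the pseudogene AT2G10605 and 323 bp from the microRNA gene *MIR396a*, had 5.70 and 4.34 rpm in WT and 2.67 and 2.86 rpm in *h3.3kd*, and did not pass with the batch term. Upward, the bin from 15223001 of chromosome 3, in the gene AT3G43270, had 6.88 and 6.73 rpm in WT and 8.97 and 9.01 rpm in *h3.3kd*. The bin from 6269001 of chromosome 2, over the pseudogene AT2G14650, had 2.26 and 2.19 rpm in WT and 3.01 and 2.84 rpm in *h3.3kd*. That from 2056001, over AT2G05580, had 6.84 and 7.64 rpm in WT and 9.69 and 9.43 rpm in *h3.3kd*, and these 3 did not pass with the batch term.

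As a second reference, the H3 libraries were uneven. WT replicate 2 of H3 had a Pearson correlation of 0.66 to 0.67 with the H3K4me3 libraries across 26014 genes and of 0.21 to 0.42 with the other H3 libraries, which had 0.80 to 0.87 with each other. Its density from -1000 to -250 bp was 9.39 RPKM against 7.16 to 7.42 in the others. Over H3 of the same replicate number, 0 genes passed in limma, where 665 were higher and 426 lower at p under 0.05 unadjusted. With H3 replicate 1 as the reference for both replicates, which leaves that library out, 6 genes were higher and 17 lower.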

How the data were processed

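ChIP-seq of H3K4me3 and of H3 was analysed in WT and *h3.3kd* seedlings, 2 libraries each. The authors mapped reads to TAIR10 with Bowtie (version not given in the sources used here), kept uniquely mapping reads, discarded repeats at identical coordinates and deposited, for each library, a list of the leftmost position of each read, which is not a normalized value and not a count per feature. Replicate 2 of H3K4me3 was deposited without strand or organelle reads. The other 12 files were not used.

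Reads of 50 bp were placed by their midpoint on the 5 chromosomes of TAIR10.1 and counted over 1-kb bins and over the starts of 26194 protein-coding genes no shorter than 500 bp, in reads per 1000000 nuclear reads (rpm). Windows averaging 10 reads or more were compared on log2(rpm + 0.1) with limma 3.58.1 (trend) in R 4.3.3, with Benjamini-Hochberg adjustment over all windows at 0.05. limma's estimate of prior degrees of freedom was infinite, so all windows of like level shared 1 variance. Fold changes on this scale understate those of low windows. For regional means an exact two-sided permutation test over libraries was used. Python 3.11.15, numpy 2.4.6 and pandas 2.3.3 served for the rest. Because duplicates were removed, the number of reads at a position is capped, and the correction estimates lost reads in tiles of 50 bp with 2 places per position. Pericentromeres are the stretches around the centromeres where less than 30% of 100-kb windows is coding genes.

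Same-numbered H3K4me3 libraries deviated together from their genotype's mean (Pearson correlation 0.85 across 26014 genes), and the number goes with the list format, so the format was used as a batch term. Genes were named by a rule: the 5 largest rises and falls among called genes with a mean of at least 100 reads and groups that do not overlap, filled up with the widest gaps between groups, and from each list the highest level and the largest rise and fall. For bins it takes 3 of each kind. The called bins, AT4G40045 and AT5G42280 were also chosen after their values were seen. Members, lists and tests were chosen with earlier results of these data known. The fit without the batch term was tested on simulated data, which held no difference between replicate numbers and no limit on reads per position. The fit with the batch term was not tested in this way.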

Additional observations from a re-analysis of the deposited data

How the results depend on the processing

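Most regional differences changed sign with the reference or with a library left out, and the cause was not tested. With 1 library left out, 1 replicate number of a genotype is set against both of the other. Such a value therefore also holds the difference between replicate numbers and cannot be read as the difference between genotypes alone. From the TSS to +1000 bp the difference over all genes was -0.012 over H3 of the same genotype and replicate number, -0.032 over pooled H3 and -0.017 over H3 replicate 1. From -1000 to -250 bp it was -0.034 over H3 replicate 1 and -0.064 as a gene by gene mean. Beyond +1500 bp it was -0.076 over H3 of the same number, -0.056 over pooled H3, -0.083 after the correction for lost reads and -0.010 gene by gene. Before the TES it was -0.022 after the correction, and after the TES -0.027 gene by gene. For downregulated genes it was 0.0020 with at most 1 read per position and 0.21 with pericentromeric scaling. In intergenic bins it was 0.13 over H3 of the same number, 0.076 over pooled H3 and 0.010 with pericentromeric scaling. The contrast of length classes was -0.059 and that of exon classes -0.068 over H3 replicate 1, and the shift of the summit was -75 bp over pooled H3, -20 bp over H3 replicate 1 and -5 bp by leftmost base. The exact test could not pass the threshold under any setting.

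Leaving out 1 library at a time, the difference ran from -0.040 to 0.17 from the TSS to +1000 bp, from -0.0021 to 0.036 upstream, from -0.046 to 0.048 in the body, from 0.015 to 0.083 before the TES and from -0.00095 to 0.057 after it. It ran from -0.094 to 0.086 for downregulated and from 0.024 to 0.22 for upregulated genes, from -0.59 to 0.18 in intergenic and from -0.69 to 0.26 in pericentromeric bins. The contrasts ran from -0.021 to 0.11 for length and from -0.016 to 0.036 for exons, the share from -0.75 to 4.62 percentage points and the summit from -5 to 25 bp. Called genes ran from 0 to 1 and called bins from 1 to 5.

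The replicate block, which is the batch term of the report, called 1243 genes and 160 bins against 1 and 3 without it, and 2756 genes and 3382 bins together with the correction, an alternative chosen after seeing the data. Genes called were 49 over pooled H3, 23 over H3 replicate 1, 2 after the correction with the median difference set to 0 (also chosen after seeing the data), and 0 over H3 of the same number, after the correction alone, with pericentromeric scaling, by limma-voom, with the median difference set to 0 and with quantile normalization. Bins called were 813 over pooled H3, 214 over H3 replicate 1, 5 over H3 of the same number, and 0 with at most 1 read per position and with quantile normalization. Where both replicates share an H3 reference, its own spread does not enter the test. Of the values of length and exon classes under the alternatives, 115 of 126 moved by less than 1 SD. Scaling to pericentromeric reads could not be used for its own bins, the share or the summit. Depth limited high levels in replicate 2, where positions were nearly full.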

Other observations

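The libraries disagreed most at AT5G42280, a cysteine/histidine-rich C1 domain gene on chromosome 5 from 16905202 to 16908059, chosen after its values were seen. From the TSS to +1000 bp it had 18.7 and 26.5 rpm of H3K4me3 in WT and 5.54 and 27.1 rpm in *h3.3kd*, so only *h3.3kd* replicate 1 was low. H3 there was 8.38 and 8.10 rpm in WT and 10.7 and 9.59 rpm in *h3.3kd*, and did not show the loss. The difference was -1.73 on the log2 scale within replicate 1 and 0.029 within replicate 2, yet the gene passed in limma with the batch term (adjusted p = 1.35e-25), an instance of the pooled variance. At AT3G13440, a methyltransferase-like gene, WT replicate 1 was low, with 16.2 and 29.2 rpm in WT and 27.7 and 29.4 rpm in *h3.3kd*. *MPK17*, which encodes a MAP kinase, had 3.36 and 5.82 rpm in WT and 6.35 and 6.07 rpm in *h3.3kd*.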
